A study of Mus musculus with 62 samples.

Results

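The genes described here are 9 components and regulators of the complement cascade, measured in the diaphragm of mice that carried a cachectic or a non-cachectic melanoma. They were chosen by name, as C1ra, C1s1, C4b, C2, C3, Cfb, Cfd, Serping1 and Cd55, and all 9 were found among the 47643 genes of the expression table. All 9 also passed the filter on low values, a level of at least 1 TPM (transcripts scaled to a fixed total and per transcript length) in 5 or more mice, which left 13578 genes for testing. RNA-seq was run on the skeletal muscle part of the diaphragm, with 1 library per mouse and 62 mice in all. CAC mice received the human melanoma xenograft MAST360B, which causes wasting, NCAC mice received the melanoma xenograft MAST552A, which does not, and Con mice were mock injected. Tissue was taken 2, 4, 6 and 8 weeks after injection, from 5 mice per condition except for 7 CAC mice at 8 weeks. All mice were females, which the study's methods give as 2 months old when purchased. Age at tissue collection may therefore differ between weeks. The sample labels give the strain as C57BL6/J, whereas the series description and the study's methods name NCI Ath/nude mice, which lack T cells. Each tumor group stands for 1 xenograft, so cachexia and the identity of the xenograft cannot be told apart. The comparisons ask whether complement transcripts in the muscle differ with a cachectic tumor, beyond carrying a tumor at all.

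Complement is a cascade of plasma proteases and binding proteins that marks microbes and damaged cells for uptake and can form lytic pores. The classical pathway starts when C1q binds a target and activates the proteases C1r and C1s, which cleave C4 and C2. The alternative pathway uses factor B and factor D, both routes converge on C3, and regulators such as the C1 inhibitor and CD55 hold them in check. Most circulating complement is made by the liver, but fibroblasts, macrophages and fat cells also transcribe parts of it. Alb, which encodes the liver protein albumin, was therefore read beside the members as a check for liver RNA, since the diaphragm lies against the liver. In a bulk library, fewer cells of a type and less RNA per cell cannot be told apart.

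Several members lie side by side in the genome, with positions given here in GRCm38 from the GENCODE M21 annotation. C1ra (chr6:124512405-124523443, plus strand) and C1s1 (chr6:124530345-124542359, minus strand) are 6901 bases apart. C2 (chr17:34862604-34898265) and Cfb (chr17:34856374-34862518) are 85 bases apart, and C4b (chr17:34728380-34743882) lies on the same minus strand nearby. C3 (chr17:57203970-57228136, minus strand), Serping1 (chr2:84765387-84775444, minus strand), Cd55 (chr1:130439027-130462744, minus strand) and Cfd (chr10:79890853-79892655, plus strand) stand alone. C1ra has a near copy, C1rb (chr6:124570294-124581171, plus strand), whose coding sequence is 97.9% identical. Of all stretches of 100 bases in the C1ra transcripts, the length of 1 read, 34.5% also occur in C1rb. For C4b and its copy C4a that share is 16.5%, for C1s1 and C1s2 it is 7.9%, and for Cd55 and Cd55b 5.5%. How reads that match both copies were divided is not given in the sources used here, so the C1ra level is uncertain by the part that C1rb can take. The 100 aligned coding bases at which these copies differ most are shown because reads over them can separate the genes. They lie in 1 coding exon of each gene, at chr6:124522637-124522736 in C1ra and chr6:124580683-124580782 in C1rb, and the 13 capitals mark the bases that differ.
C1ra: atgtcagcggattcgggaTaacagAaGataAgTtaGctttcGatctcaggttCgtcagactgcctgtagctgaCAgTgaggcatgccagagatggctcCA
C1rb: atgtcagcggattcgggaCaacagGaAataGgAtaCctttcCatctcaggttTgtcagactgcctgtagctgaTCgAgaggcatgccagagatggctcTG

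RefSeq upstream windows of 250 bases (GRCm38.p6) were at hand for 5 of the 9 members, C3, C1ra, C1s1, Cfd and Cd55. They were searched on both strands for the STAT motif TTCNNNGAA, the C/EBP motif TTGCNNAA, an NF-kB motif, the interferon-stimulated response element and TATAAA. Among all 32851 windows, 7.02%, 9.56%, 3.9%, 2.98% and 12.4% held them, in that order. C3 held a C/EBP match at -45 to -38 from its start, and C1s1 held one on the minus strand of 1 of its 2 windows, at -242 to -235. None of the other motifs was found in these 5 genes' windows. The last 100 bases before the C3 start are shown for the place of its match, which is in capitals (chr17:57228137-57228236, minus strand, from RefSeq).
C3: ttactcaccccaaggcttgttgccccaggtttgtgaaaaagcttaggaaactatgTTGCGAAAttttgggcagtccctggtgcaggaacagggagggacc

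Muscle fiber genes were high in every library, with Acta1 at 7993 to 47694 TPM. In 4 libraries, 2 from CAC and 1 from NCAC mice at 2 weeks and 1 from a CAC mouse at 8 weeks, only 15069 to 16389 genes were above 0 against 17909 or more in the other 58. Mitochondrially encoded genes made up 54.4 to 61.5% of TPM in these 4 libraries and 32.5 to 50.1% in the other 58. As TPM sums to a fixed total, a larger mitochondrial share lowers the TPM of the remaining genes. Alb ranged from listed at 0 to 13369 TPM around a median of 16.0. It lay over 10 times that median in 11 mice, 3 of them Con and 2 CAC at 2 weeks, and in no NCAC mouse.

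In the 15 Con mice of weeks 4 to 8, C3 was the most abundant member with a median of 304 TPM, and Cd55 the least with 6.37. TPM is a level per transcript length, so genes can be set in order on this scale. Between them lay Cfd at a median of 130.0 TPM, Serping1 at 125, C1s1 at 60.4, C4b at 45.5, C1ra at 39.3, Cfb at 17.8 and C2 at 15.8. The ranges over the 15 mice overlapped for each pair of neighbors in this order. Serping1 varied least among these controls, with a coefficient of variation of 16.6%, and Cfd most, with 84.8%.

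**Figure D1:**
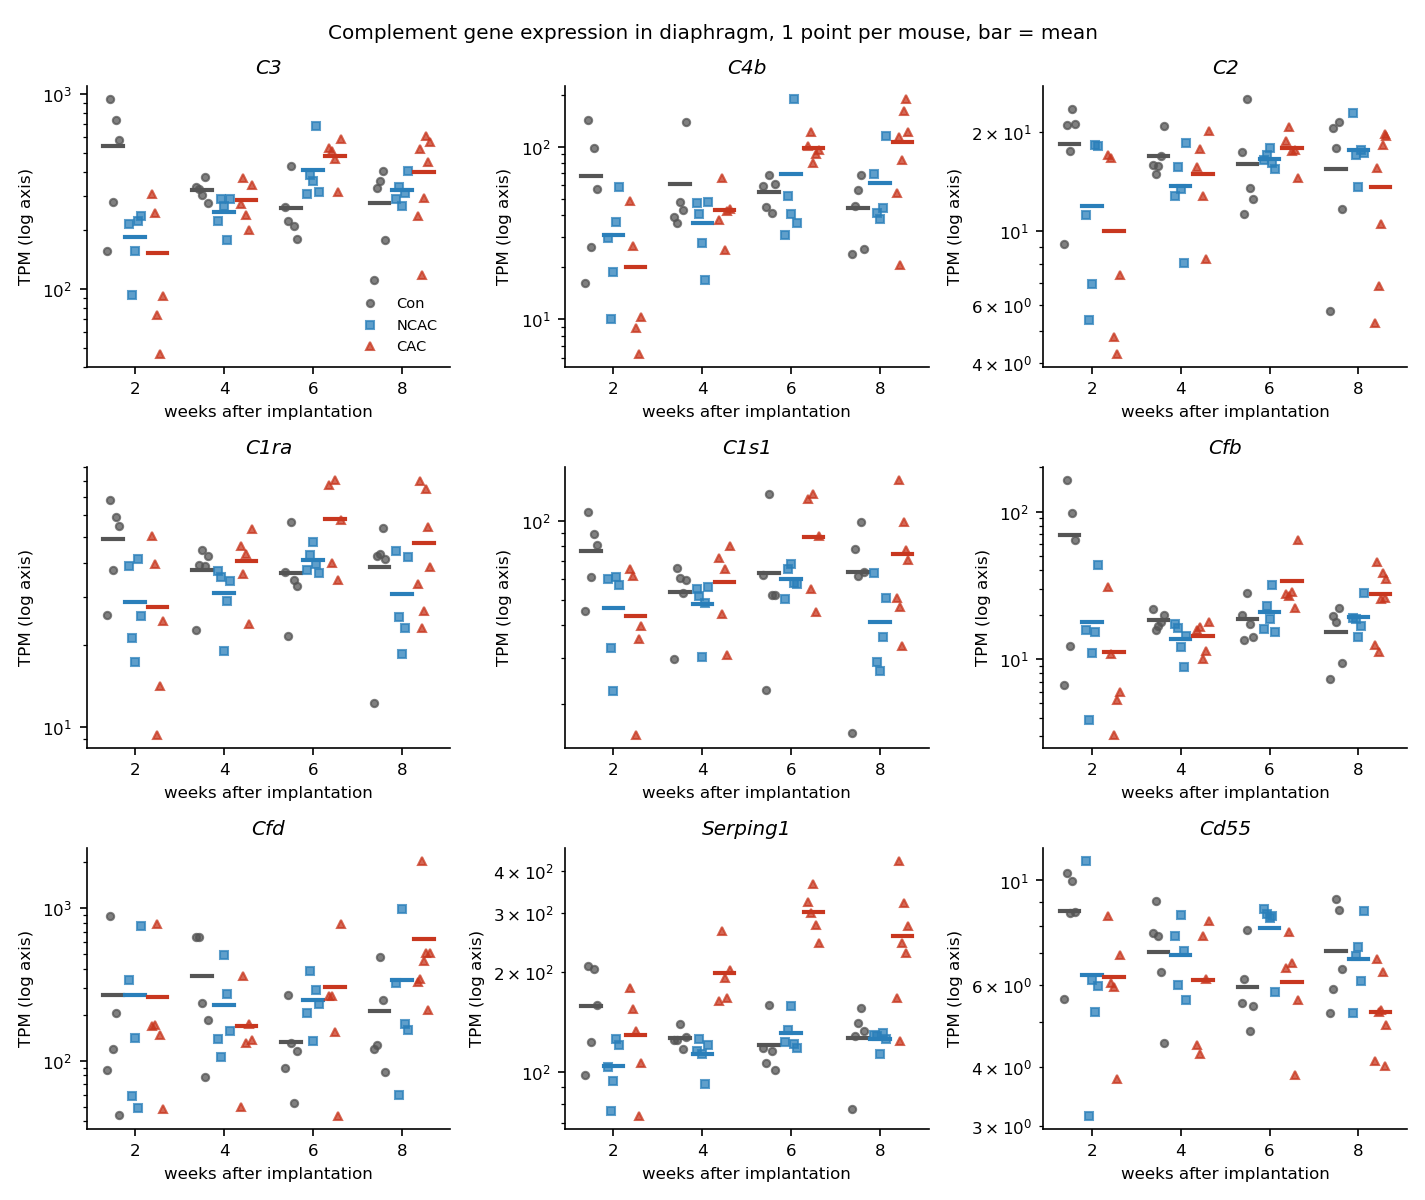
TPM on a log axis of each of the 9 complement genes in every mouse, by weeks after injection (Con grey circles, NCAC blue squares, CAC red triangles; 1 point per mouse, bars give the mean). All 5 CAC values of Serping1 lie above every Con and NCAC value at 4 and 6 weeks, whereas the other genes overlap more widely.

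Across the time course, Serping1 was the one member called higher in CAC mice, at 6 and at 8 weeks, and it was so against both Con and NCAC mice. A call here is an adjusted p under 0.05 from limma on log2(TPM + 1), with Benjamini-Hochberg adjustment over the 13578 genes, and fold changes are on that scale. At 6 weeks 1 of 9 members was called higher than in Con mice and none lower, where 5.62% of all genes tested were called higher and 1.17% lower. At 8 weeks it was again 1 of 9, beside 6.65% of all genes higher and 8.12% lower. Against NCAC mice it was 1 of 9 at both times, beside 4.28% higher and 1.57% lower at 6 weeks and 6.75% and 6.19% at 8 weeks. At 4 weeks no member was called by limma against Con mice (0.0147% of genes higher, 0.00736% lower) or against NCAC mice (0.0295% higher, 0% lower), and 1 member, Serping1, had an unadjusted p under 0.05 in each. Between NCAC and Con mice at 4, 6 and 8 weeks limma called 0 members and 0% of all genes, and no member had an unadjusted p under 0.05. Kruskal-Wallis and Dunn's rank tests on the same values called no member in any comparison, but they also called 0 of all genes except in CAC mice at 8 weeks, with 941 genes against Con and 577 against NCAC mice.

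**Figure D2:**
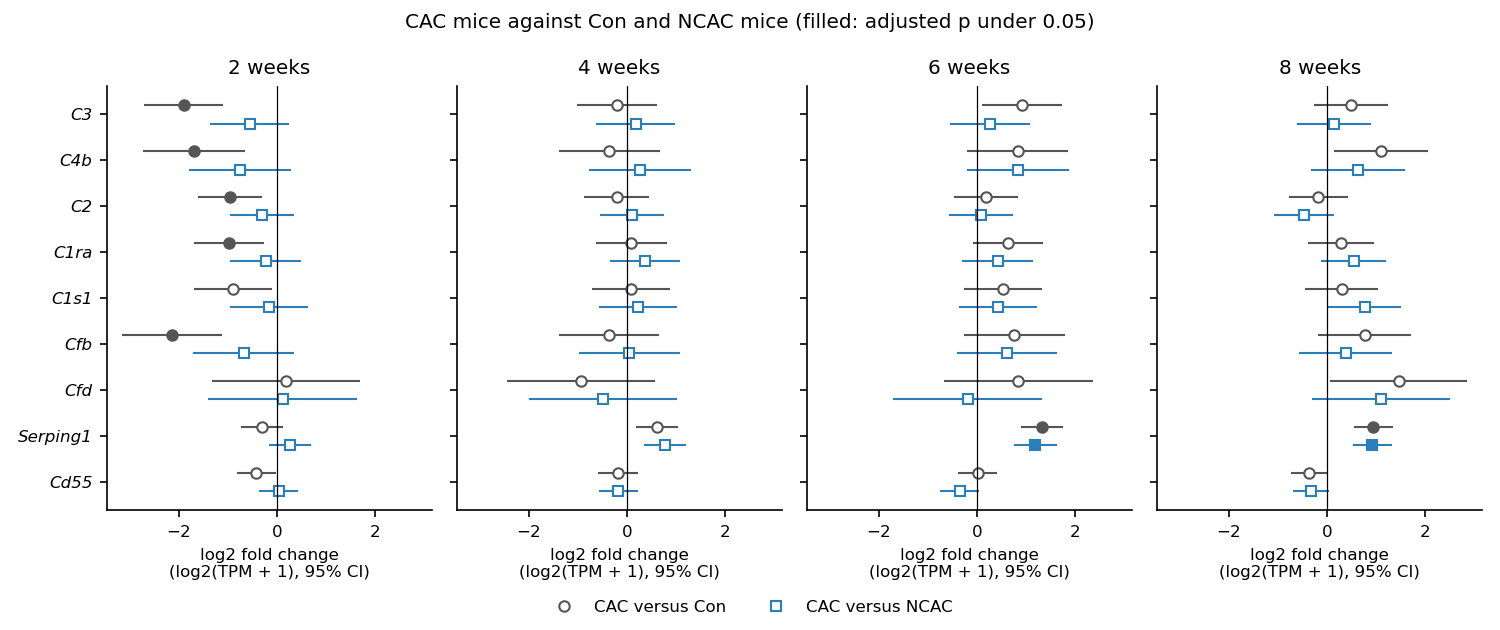
Log2 fold change of each member at 2, 4, 6 and 8 weeks with its 95% confidence interval (CAC versus Con grey circles, CAC versus NCAC blue squares; filled symbols have an adjusted p under 0.05 in limma). Filled symbols to the left of 0 occur at 2 weeks for 5 members against Con mice, and filled symbols to the right of 0 occur for Serping1 at 6 and 8 weeks.

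Serping1 encodes the C1 inhibitor, a serine protease inhibitor that inactivates C1r and C1s and so limits the start of the classical pathway. At 4 weeks it was at 163, 166, 191, 203 and 264 TPM in CAC mice, at 117, 124, 125, 127 and 139 TPM in Con mice and at 92.0, 113, 116, 120.2 and 126 TPM in NCAC mice. Every CAC mouse lay above every mouse of the other groups, as was the case for 4.91% of all genes against Con mice and 5.52% against NCAC mice. The log2 difference of 0.62 (SE 0.22) against Con mice did not pass correction in limma (adjusted p = 0.525). Nor did that of 0.78 against NCAC mice (limma, adjusted p = 0.238), although it was called when only those 2 groups entered the fit (adjusted p = 0.0418).

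At 6 weeks Serping1 reached 244, 276, 300.1, 323 and 367 TPM in CAC mice (mean 302 ± 46.7, SD, n = 5). It was at 101, 107, 115, 118 and 159 TPM in Con mice and at 118, 121, 123, 134 and 158 TPM in NCAC mice. The groups did not overlap, with the lowest CAC mouse above the highest mouse of either control, as for 15.9% of all genes against Con and 13.6% against NCAC mice. The CAC mean was 2.52 times that of Con mice (log2 difference 1.33, SE 0.22, limma adjusted p = 2.88e-05) and 2.31 times that of NCAC mice (log2 difference 1.20, SE 0.22, limma adjusted p = 0.000201).

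At 8 weeks the 7 CAC mice lay between 124 and 430.4 TPM with a median of 243, Con mice at 77.2, 128, 132, 139.8 and 155 TPM, and NCAC mice at 113, 125, 128, 129 and 131 TPM. At 8 weeks every CAC mouse lay above every Con mouse for 2.52% of all genes, and above every NCAC mouse for 2.45%. For Serping1 6 of 7 CAC mice were above all Con and NCAC mice, and the remaining one, at 124 TPM, was the library with few genes. The CAC mean of 256 ± 101 TPM (SD, n = 7) was 2.02 times that of Con mice (log2 difference 0.95, SE 0.20, limma adjusted p = 0.000492). Against NCAC mice it was 2.04 times as high (log2 difference 0.92, SE 0.20, limma adjusted p = 0.000742). At 8 weeks the call against both groups was lost when only the groups compared entered the fit (adjusted p = 0.0906 against Con mice and 0.0799 against NCAC mice).

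The CAC minus Con difference of Serping1 was 0.71 larger at 6 than at 4 weeks on the log2 scale (95% confidence interval 0.10 to 1.32), which did not pass correction over all genes in limma. No member and 0% of all genes were called by limma for a change of this difference between 4 and 6 weeks or between 6 and 8 weeks. The CAC mouse with the highest Alb at 6 weeks, at 2720 TPM, had the lowest Serping1 of its group, whereas the one with 1022 TPM at 8 weeks had the highest. Serping1 was also highest in the mouse of highest Alb in all 3 groups at 2 weeks and in Con mice at 6 weeks. Without the 11 mice of high Alb the log2 difference from Con mice was 1.51 at 6 weeks and 0.92 at 8 weeks (limma adjusted p = 1.67e-06 and 0.00084).

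Some markers of immune cells were called higher in the same comparisons, where 5.62% of all genes were called higher at 6 weeks and 6.65% at 8 weeks. Of 10 macrophage genes, 3 were called higher in CAC than Con mice at both 6 and 8 weeks. Their summed level at 6 weeks was 299.7 to 640 TPM in CAC mice, within the range of 274 to 777 TPM in Con mice. Lyz2, with a median of 256 TPM over all 62 mice, weighs most in this sum. Of the 5 neutrophil genes tested, 1 was called higher at 6 and 3 at 8 weeks, and the summed level was 41.2 to 127 TPM in CAC and 6.84 to 15.9 TPM in Con mice at 6 weeks. Their part in the Serping1 difference was not tested.

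Over the 47 mice of weeks 4 to 8, the gene whose level followed Serping1 most closely was Lbp, an acute-phase protein that binds lipopolysaccharide (Spearman's rho 0.92). Tnfrsf1a, a receptor for tumor necrosis factor, and the adaptor gene Skap2 came next with 0.90 and 0.89. These mice include all 3 groups, so group differences enter the values. Lbp was at 20.4, 24.9, 25.8, 28.8 and 46.5 TPM in CAC mice at 6 weeks and between 5.30 and 7.75 TPM in Con mice.

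**Figure D3:**
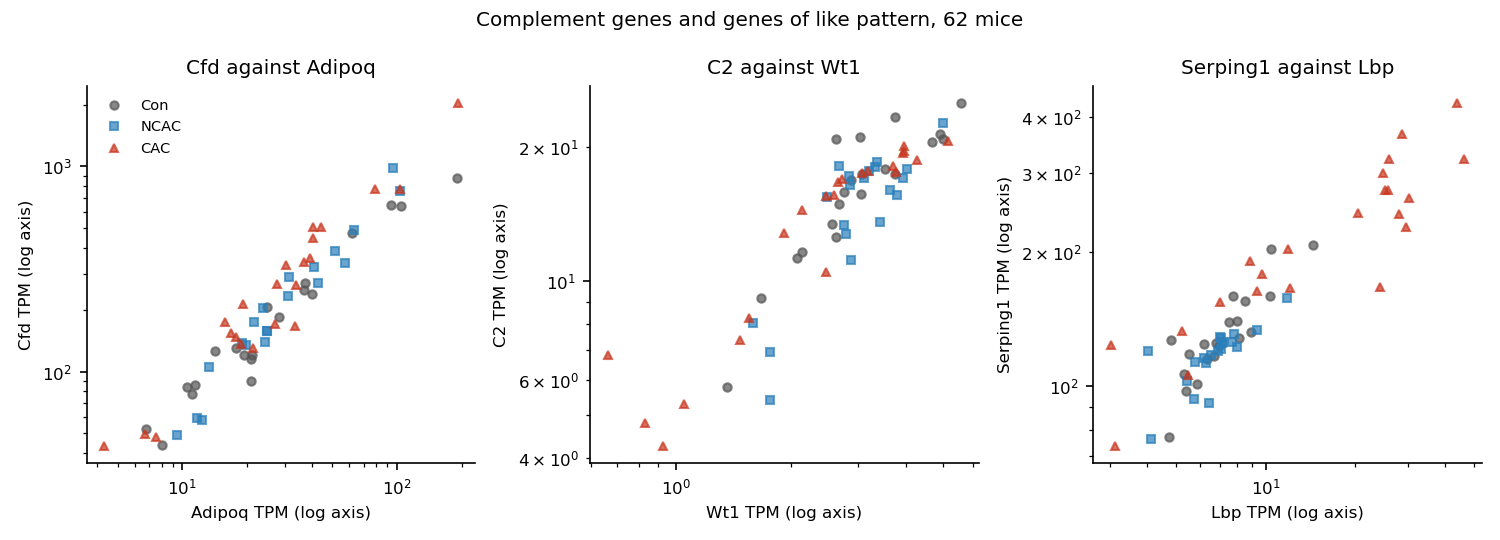
TPM on log axes of Cfd against Adipoq, C2 against Wt1 and Serping1 against Lbp in all 62 mice, 1 point per mouse by group. Each pair rises together (over the 47 mice of weeks 4 to 8, Spearman's rho 0.94, 0.92 and 0.92), and the CAC mice fill the upper end of the Serping1 and Lbp panel.

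C1ra and C1s1 encode the proteases C1r and C1s, which cleave C4 and C2 once C1q has bound. At 6 weeks C1ra was at 34.7, 40.0, 57.5, 77.8 and 81.0 TPM in CAC mice and at 21.6, 33.1, 34.7, 37.2 and 56.4 TPM in Con mice, with overlap. The log2 difference of 0.64 (SE 0.36) was not called by limma (adjusted p = 0.323). With C1ra and C1rb summed, an alternative chosen after seeing the data, it was 0.83 and was called (limma adjusted p = 0.0389). C1s1 was at 44.9, 54.9, 87.6, 121 and 126 TPM in CAC and 22.7, 52.0, 52.1, 61.99 and 126 TPM in Con mice at 6 weeks, and the groups overlapped over nearly the whole range. At 8 weeks the means of C1s1 were 74.5 ± 37.2 TPM in CAC (n = 7), 63.5 ± 30.6 in Con and 41.2 ± 15.6 in NCAC mice (SD, n = 5 each). Its log2 difference of 0.77 from NCAC mice had a limma adjusted p of 0.174. The level of C1s1 also differed with the ratio of C1rb to C1ra, which is described below. The 2 protease genes ran together over the 47 mice of weeks 4 to 8, with a Spearman's rho of 0.93, the highest between any pair of members. Closest to both outside the set was C1s2, listed as C1s2_1, with 0.86 for C1ra and 0.91 for C1s1. Kcnk5 and Fbln1 came next for C1ra (0.71 and 0.70), and Scnn1a and Tmem98 for C1s1 (0.64 and 0.63).

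C4b encodes complement C4, whose larger fragment binds covalently to the target. At 6 weeks it was at 80.8, 90.7, 95.3, 100.3 and 121 TPM in CAC mice, 41.0, 44.4, 59.5, 60.7 and 68.9 TPM in Con mice and 30.8, 36.0, 40.9, 51.8 and 189 TPM in NCAC mice. All CAC mice lay above all Con mice, as for 15.9% of all genes, but 1 NCAC mouse was above them all. The log2 difference of 0.83 (SE 0.52) from Con mice did not pass the test across conditions (limma adjusted p = 0.382). It was called when only the groups compared entered the fit, which uses their own spread (adjusted p = 0.0038), where 4030 genes in all were called.

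At 8 weeks C4b ranged from 20.5 to 188 TPM with a median of 113 in CAC mice and stood at 23.8, 25.6, 45.5, 55.9 and 68.4 TPM in Con mice. The lowest CAC mouse lay below the Con mice and was again the library with few genes. The log2 difference was 1.10 (95% confidence interval 0.14 to 2.06, limma adjusted p = 0.121). Without the 4 libraries of fewest genes it was 1.44 and was called (adjusted p = 0.00912), as were 4697 genes in all. Its closest gene over the mice of weeks 4 to 8 was its copy C4a (rho 0.91), with which it shares sequence, followed by Ptgs1 and Ncf1 (0.86 each).

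C2 encodes the protease that joins C4 to form the classical C3 convertase. At 6 weeks it was at 14.5, 17.5, 17.6, 18.7 and 20.7 TPM in CAC mice and 11.3, 12.6, 13.5, 17.4 and 25.1 TPM in Con mice, and the groups overlapped (log2 difference 0.19, limma adjusted p = 0.783). At 8 weeks the CAC mean was 13.6 ± 6.04 TPM (n = 7) against 15.5 ± 6.63 in Con and 17.6 ± 3.27 in NCAC mice (SD, n = 5 each). The log2 difference from NCAC mice was -0.46 and was not called (limma adjusted p = 0.361). The genes most like C2 over the 47 mice were Wt1, Crb2 and Krt19 (rho 0.92, 0.89 and 0.88), and Wt1 and Krt19 are among 9 genes listed for the mesothelial lining of the diaphragm. Of those 9, none was called in CAC against Con mice at 6 or 8 weeks by limma, where 0 and 1 had an unadjusted p under 0.05, and 1 was called lower against NCAC mice at 8 weeks. The summed level of the list was 41.7 to 217 TPM in CAC and 59.2 to 229 TPM in Con mice at 8 weeks.

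C3 encodes the protein on which all pathways converge and whose cleavage tags targets for uptake. At 6 weeks it was at 315, 462, 509.7, 529 and 590.4 TPM in CAC mice, at 181, 209, 224, 262 and 426 TPM in Con mice and at 308, 313, 357, 383 and 688 TPM in NCAC mice. 4 of 5 CAC mice lay above all Con mice, but the NCAC range enclosed all 5. The highest CAC value was that of the mouse with 2720 TPM of Alb. The log2 difference of 0.92 (SE 0.40) from Con mice was not called (limma adjusted p = 0.175), and that from NCAC mice was 0.27 (adjusted p = 0.776). Against Con mice it was called when only the groups compared entered the fit (adjusted p = 0.0138, 4030 genes called in all) and without the 4 libraries of fewest genes (adjusted p = 0.038, 4233 genes called in all).

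At 8 weeks C3 ran from 118 to 609 TPM with a median of 448 in CAC mice, against 111, 179, 331, 357 and 405 TPM in Con mice and 266, 291, 311, 333 and 401 TPM in NCAC mice. In 4 of 7 CAC mice it was above every other mouse of that week, and the log2 difference from Con mice was 0.50 (limma adjusted p = 0.426). The genes most like C3 over the mice of weeks 4 to 8 were Cmah, Ncoa4 and Man1a (rho 0.89, 0.85 and 0.85).

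Cfb encodes factor B, which pairs with C3 fragments to form the alternative C3 convertase. At 6 weeks it was at 22.1, 26.9, 27.5, 28.4 and 64.5 TPM in CAC mice and at 13.5, 14.2, 17.3, 19.9 and 28.2 TPM in Con mice. The groups overlapped by 1 Con mouse, and the highest CAC mouse was the one with an Alb of 2720 TPM. The log2 difference of 0.77 (SE 0.51) was not called at 6 weeks, nor was that of 0.78 at 8 weeks (limma adjusted p = 0.422 and 0.302). Cfb followed C3 (rho 0.86) and C4b (0.83) over the 47 mice of weeks 4 to 8, whereas C3 and C4b followed each other less closely (0.68). The genes outside the set most like Cfb were Cmah, C4a and Cers6 (rho 0.89, 0.83 and 0.82).

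Cfd encodes factor D, also called adipsin, the protease that cleaves factor B and that fat cells secrete. It ranged from 43.2 to 2033 TPM over all 62 mice. At 8 weeks it lay at 214 to 2033 TPM with a median of 446 in CAC mice, at 84.0, 120.1, 127, 249 and 474 TPM in Con mice and at 59.5, 158, 174, 322 and 983 TPM in NCAC mice. The groups overlapped, and the highest CAC value came from the library with few genes. Its log2 difference of 1.46 (SE 0.70) from Con mice was not called (limma adjusted p = 0.164), and at 6 weeks it was 0.85 (adjusted p = 0.575). The highest CAC mouse at 6 weeks, at 778 TPM, was the one with 2720 TPM of Alb.

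Cfd moved with fat cell genes over the mice of weeks 4 to 8, with a rho of 0.96 to Cidec and Retn and 0.94 to Adipoq, the gene of adiponectin. Over all 62 mice Adipoq spanned 44.2-fold and Cfd 47.03-fold, while the ratio of Cfd to Adipoq spanned 2.92-fold around a median of 7.48. The summed level of 11 adipocyte genes was 1554 to 2767 TPM in CAC and 847 to 1324 TPM in Con mice at 8 weeks, and 1 of the 11 was called higher. Fabp4 and Plin4, with medians of 694 and 216 TPM over all 62 mice, weigh most in this sum. Adipoq overlapped at 8 weeks, at 19.1 to 192 TPM in CAC and 10.5 to 61.7 TPM in Con mice. The mean log2 level of the list was 4.97 (SD 0.25) in CAC and 4.61 (SD 0.55) in Con mice. With that list as a covariate, added after seeing the data, the log2 difference of Cfd at 8 weeks was 0.84 (limma adjusted p = 0.0706). The correlation of Cfd with the other members lay between -0.07 and 0.27.

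Cd55 encodes decay-accelerating factor, a membrane protein that dissociates C3 convertases on the cell's own surface. It was the lowest member, at 3.86, 5.57, 6.50, 6.67 and 7.77 TPM in CAC mice and 4.79, 5.41, 5.50, 6.16 and 7.85 TPM in Con mice at 6 weeks. NCAC mice stood at 5.78, 8.32, 8.39, 8.49 and 8.68 TPM, and 4 of these 5 were above all others of that week. The log2 difference between CAC and Con mice was 0.02 at 6 weeks (95% confidence interval -0.38 to 0.42) and -0.36 at 8 weeks, neither called (limma adjusted p = 0.975 and 0.201). Over the mice of weeks 4 to 8 Cd55 was most like Fstl1, Antxr2 and Dpt (rho 0.78, 0.76 and 0.75).

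At 2 weeks most members were lower in CAC than in Con mice, and liver RNA differed widely between mice of this week. 5 of 9 members, C3, C4b, C2, C1ra and Cfb, were called lower by limma and none higher, where 27.8% of all genes were called lower and 1.41% higher. The median log2 difference was -0.95 over the 9 members and -0.42 over all genes tested. After median-ratio scaling, which moved the latter to -0.06, 2 members were called lower, where 2386 genes in all were called in either direction.

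C3 stood at 157, 281, 582, 734 and 945 TPM in Con mice, 46.2, 73.4, 92.5, 244 and 308 TPM in CAC mice and 92.9, 156, 215, 224 and 236 TPM in NCAC mice. 3 Con mice were above all tumor-bearing mice and the other two lay within their range. The log2 difference from Con was -1.90 (SE 0.40) in CAC and -1.35 (SE 0.40) in NCAC mice (limma adjusted p = 0.00443 and 0.0372). These comparisons share the Con mice. Cfb showed the same layout, at 6.70, 12.3, 64.4, 97.4 and 164 TPM in Con and 3.04, 5.27, 5.95, 10.9 and 30.6 TPM in CAC mice (log2 difference -2.14, SE 0.51, limma adjusted p = 0.00662). C4b was at 16.2, 26.2, 56.6, 97.9 and 142 TPM in Con and 6.26, 8.87, 10.3, 26.5 and 48.1 TPM in CAC mice (log2 difference -1.69, limma adjusted p = 0.0188). The log2 differences of C1ra and C2 were -0.98 and -0.95 (limma adjusted p = 0.0386 and 0.0291), with overlap of the groups in both.

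The 5 Con mice of this week held 1.01, 33.7, 5568, 6551 and 13369 TPM of Alb. 7 of the 9 members, C3, C4b, C1ra, C1s1, Cfb, Serping1 and Cd55, put these 5 mice in the same order as Alb did. C3 was at 582 to 945 TPM in the 3 mice with 5568 TPM of Alb or more and at 157 and 281 TPM in the others, and Cfb at 64.4 to 164 against 6.70 and 12.3 TPM. In CAC mice of that week 8 of 9 members were highest in the mouse with the highest Alb, at 1540 TPM. Outside Con mice of 2 weeks, 1 member, Cd55 in NCAC mice at 6 weeks, followed the whole order of Alb. The mouse of highest Alb was highest for 8 members in Con mice at 6 weeks. In Con mice at 4 weeks, with 911 TPM of Alb, it was highest for Cfb alone and lowest for C1ra and C1s1. In the remaining conditions it was highest for 0 to 5 members.

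A list of 12 liver genes without complement members had summed levels of 8.66 to 26597 TPM in Con, 23.1 to 176 TPM in NCAC and 50.1 to 3828 TPM in CAC mice at 2 weeks. Its median log2 difference from Con mice was -3.01 in CAC and -4.46 in NCAC mice, with 1 and 7 of the 12 called lower. Without the mice of high Alb limma called no member lower in CAC than Con mice at 2 weeks, and 0 members had an unadjusted p under 0.05, but 0 of all genes were called either. Without the 4 libraries of fewest genes, which include 2 of the 5 CAC mice, it again called 0 members and 0 of all genes, and 2 members had an unadjusted p under 0.05. With the liver list as a covariate, 2 members were called lower, where 1689 genes in all were called in either direction. The log2 difference of C3 was then -1.56 (limma adjusted p = 0.0242). Serping1 at 2 weeks changed sign, from -0.30 to 0.24, when the mice of high Alb were left out. In NCAC against Con mice 1 of 9 members, C3, was called lower at 2 weeks (4.42% of all genes lower, 0.0147% higher), and neither a member nor any other gene was called without the mice of high Alb. Between CAC and NCAC mice no member and 0% of all genes were called by limma, and no member had an unadjusted p under 0.05.

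**Figure D4:**
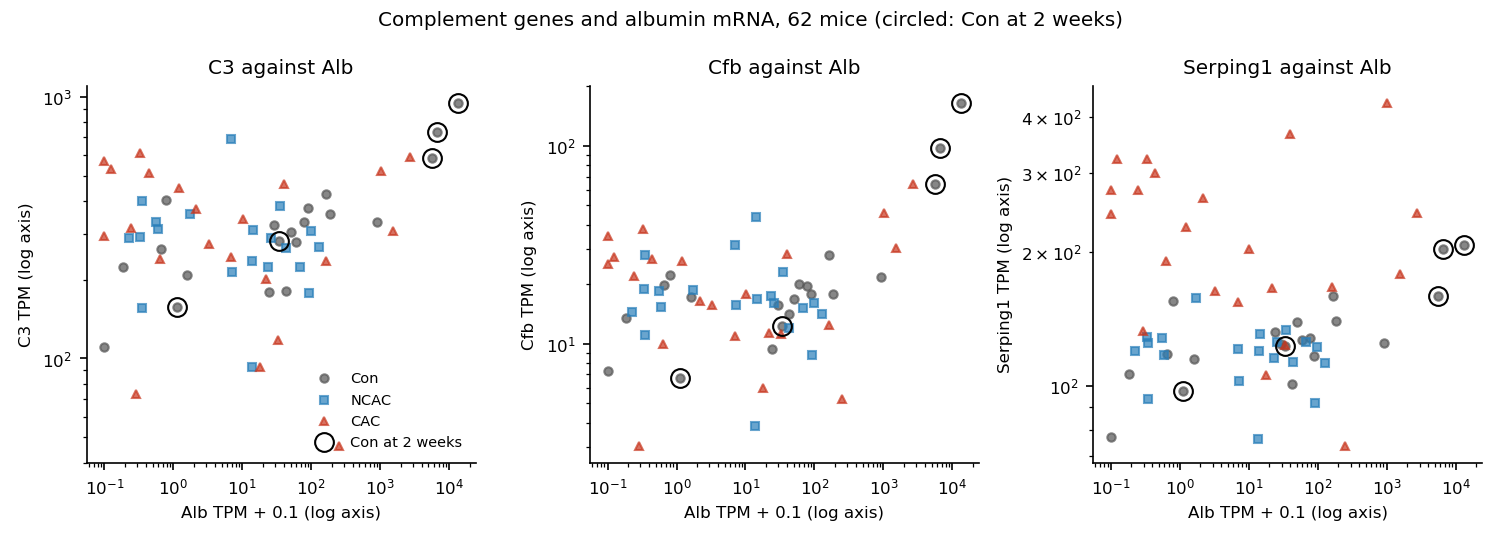
TPM of C3, Cfb and Serping1 against Alb (TPM + 0.1) in all 62 mice on log axes, by group, with the Con mice of 2 weeks circled. The highest C3 and Cfb values, 945 and 164 TPM, belong to the Con mouse with 13369 TPM of Alb, whereas the highest Serping1 values are in CAC mice at low and high Alb alike.

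Of 50 other complement genes listed, 48 were in the table and 39 passed the filter. The list holds 12 tested genes of initiation, 9 core and terminal components, 13 regulators and 5 receptors. In CAC against Con mice 7 of these 39 were called higher at 6 weeks and 8 at 8 weeks, and none lower, beside 5.62% and 6.65% of all genes called higher. Against NCAC mice it was 5 and 6, beside 4.28% and 6.75% of all genes, again with none lower. At 2 weeks 20 of the 39 were called lower in CAC and 17 in NCAC than in Con mice, beside 27.8% and 4.42% of all genes, in the week when 3 of the 5 Con mice held 5568 TPM of Alb or more.

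C6 and C7, components of the membrane attack complex, were among the genes called higher at 6 weeks. C7 was at 32.2, 34.6, 47.9, 68.4 and 70.3 TPM in CAC mice at 6 weeks and between 4.82 and 13.6 TPM in Con mice (log2 difference 2.55, limma adjusted p = 0.00052). Every CAC mouse lay above every Con mouse, as for 15.9% of all genes. In 1 of these CAC mice Alb was 2720 TPM, and the part of liver RNA in the differences of C6 and C7 was not tested. C6 rose from a mean of 0.143 to 2.02 TPM (log2 difference 1.37, limma adjusted p = 1.6e-05). C6 lay near the floor, with a median of 0.262 TPM over all 62 mice. Its mean in Con mice at 6 weeks was under the filter of 1 TPM, so it may have passed the filter chiefly through CAC mice. With 1 added to each value, the log2 difference of C6 cannot be set beside that of C7. At 8 weeks the 2 genes were again called higher, by 1.56 and 1.42 on the log2 scale (limma adjusted p = 0.014 and 8.6e-07).

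Among regulators, Clu, which encodes clusterin, an inhibitor of the terminal complex, rose at 6 weeks from a mean of 29.6 to 58.4 TPM (log2 difference 0.96, limma adjusted p = 0.021). Cd46 was also called higher, but it lay near the floor, at 0.305 to 1.71 TPM over all 62 mice (median 0.924). Clu was called again at 8 weeks, by 0.80 (limma adjusted p = 0.024). The C1q genes, which macrophages transcribe, were called for C1qb alone at 6 weeks and for C1qa, C1qb and C1qc at 8 weeks (log2 differences 0.93, 0.97 and 0.94). C5ar1, the receptor for C5a, was called higher at 6 and 8 weeks, by 1.05 and 0.58. Against NCAC mice C6, C7, Clu and C5ar1 were among the genes called at 6 weeks, and C1qa, C1qb, C1qc, C6, C7 and C5ar1 were those called at 8 weeks. For the 9 members the median log2 difference was 0.77 at 6 and 0.50 at 8 weeks, and for all genes tested it was 0.17 and -0.09.

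The level of C1ra was read with that of C1rb in each mouse, since the copies share sequence. In 46 mice the ratio of C1rb to C1ra TPM was 0.0522 to 0.109 (median 0.0773), and in 16 mice it was 0.714 to 1.24 (median 0.882). No mouse lay in the 6.53-fold gap between them, and the next widest gap between neighboring mice was 1.18-fold. In the 16 mice C1ra was at 9.29 to 40.0 TPM (median 23.5) and C1rb at 10.1 to 36.9 TPM. In the other 46 they were at 14.2 to 81.0 TPM (median 41.9) and 1.27 to 7.65 TPM.

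The sum of the copies had medians of 43.0 TPM in the 16 mice and 44.8 TPM in the 46. C1s1, the neighboring gene, had medians of 30.5 and 61.7 TPM, and Serping1 had similar ranges in both. The 16 mice were spread over the groups as 7 of 22 CAC, 3 of 20 Con and 6 of 20 NCAC mice, and over 10 of the 12 conditions. At 8 weeks they were 3 of 5 NCAC, 2 of 7 CAC and 1 of 5 Con mice. C1s1 was at 26.7, 28.9 and 36.2 TPM in those NCAC mice and at 50.9 and 63.3 TPM in the others of that condition. The part of the ratio in the group differences of C1ra and C1s1 was not tested. The 16 mice were told apart by the ratio itself, so these values are a description and no test was made.

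**Figure D5:**
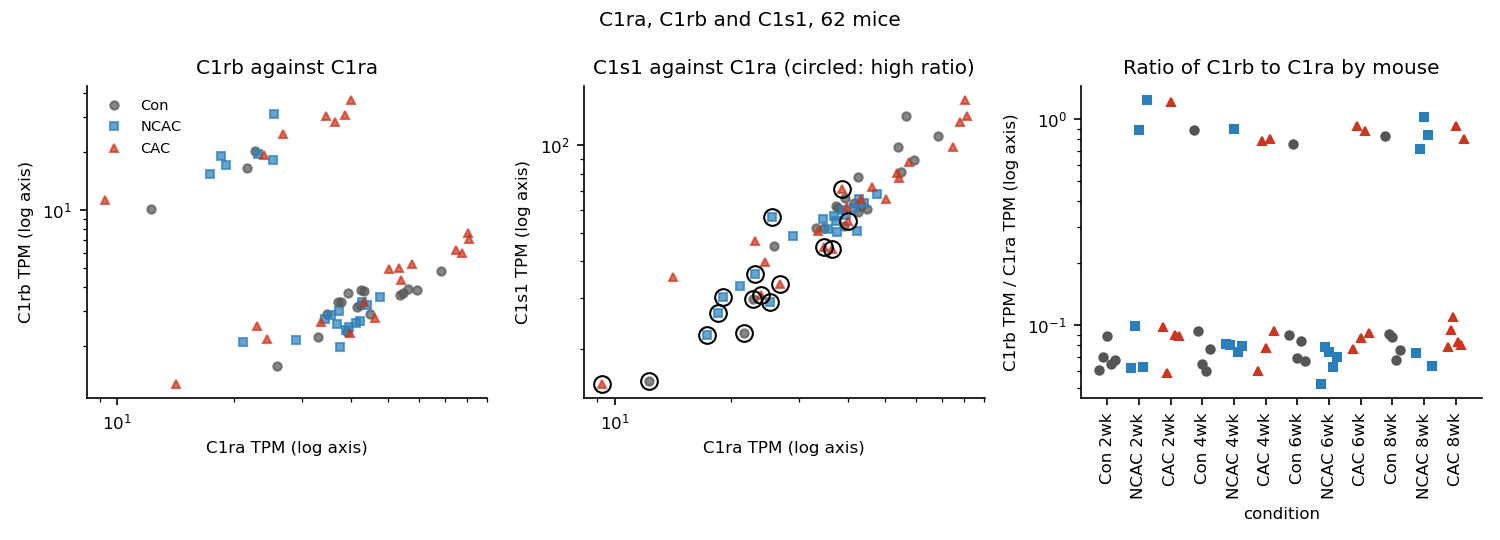
Left, C1rb against C1ra TPM, and middle, C1s1 against C1ra TPM, 1 point per mouse by group with the 16 mice of high ratio circled; right, the ratio of C1rb to C1ra by condition on a log axis. The mice fall at 0.0522 to 0.109 or at 0.714 to 1.24, and mice of high ratio occur in all 3 groups.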

How the data were processed

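The authors sequenced poly(A) RNA from diaphragm muscle on an Illumina instrument as paired reads of 100 bases, mapped them to GRCm38 (mm10) in CLC Genomics Workbench and deposited TPM values (scaled per transcript length and to a fixed total), 1 column per mouse. The labels and the methods name different library kits, TruSeq stranded mRNA and an earlier TruSeq kit, and the annotation, strand setting and treatment of reads with several matches are not given in the sources used here. TPM sums to 1000000 in every library and keeps no depth, so read depth is unknown. Groups came from the labels. The 9 members and all other gene lists were chosen with earlier results of these data known.

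Genes that reached 1 TPM in 5 or more mice were tested on log2(TPM + 1) with limma 3.58.1 in R 4.3.3, with 1 mean per condition, empirical Bayes with a trend, and Benjamini-Hochberg adjustment over all 13578 genes within a comparison. Kruskal-Wallis and Dunn's tests, which the study used, were an alternative, here over all 12 conditions and with Benjamini-Hochberg adjustment. The study instead gave cutoffs on p and log2 ratio, so this alternative is not its own rule. Other alternatives were a pseudocount of 0.1, no filter, median-ratio scaling, removal of mitochondrially encoded genes, a fit of only the groups compared, a replicate block, array quality weights, a liver covariate, and leaving out mice of high Alb, the libraries of fewest genes or 1 mouse at a time. Covariates for adipocyte and mesothelial genes and the sum of C1ra and C1rb were added after seeing the data. The fit was tested on simulated data, with 100 genes raised by 1 and 100 by 2 on the log2 scale in CAC mice at 8 weeks. Against Con mice limma called 80 and 97 of them, and Dunn's tests 0 and 0. Only these genes of 13578 were changed, whereas in the data Dunn's tests called 941 genes in this comparison. The simulated 0 therefore does not describe how many changes of that size these tests miss in the data. Likeness was Spearman's rho over the 47 mice of weeks 4 to 8, and the 3 genes outside the set with the highest rho were named for each member. Other complement genes are named where limma called them in CAC mice at 6 or 8 weeks, except for 1 gene that is not reported here. Positions and coding sequence came from GENCODE M21 and upstream sequence from RefSeq, where C4b, C2, Cfb and Serping1 had no entry. Stretches and motifs were searched with Python 3.11.15.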

Additional observations from a re-analysis of the deposited data

Results flagged for a closer look

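In 12 of 108 sets of mice (9 genes in 12 conditions) 1 mouse lay far from the rest of its condition by Dixon's criterion, where chance gives about 1 in 20. No explanation was tested. In 1 NCAC mouse at 6 weeks C3 was 688 TPM against 308 to 383 in the other 4 mice, and C4b in the same mouse was 189 TPM against 30.8 to 51.8. In 1 Con mouse at 4 weeks C4b was 139.7 TPM against 36.1 to 47.6. C1ra was 22.7 TPM in another Con mouse at 4 weeks against 39.2 to 44.8, and C1s1 was 29.8 TPM there against 52.9 to 66.0. In 1 Con mouse at 8 weeks C1ra was 12.3 TPM against 41.5 to 53.8, C1s1 15.5 TPM against 61.8 to 98.4 and Serping1 77.2 TPM against 128 to 155. C1s1 was 30.2 TPM in 1 NCAC mouse at 4 weeks against 48.7 to 55.8. These last 3 mice are among the 16 with a high ratio of C1rb to C1ra. Cfb was 64.5 TPM in the CAC mouse of 6 weeks with an Alb of 2720 TPM, against 22.1 to 28.4 in its group. Cfd was 2033 TPM in the CAC mouse of 8 weeks whose library had few genes, against 214 to 508 in the other 6. Cd55 was 5.78 TPM in 1 NCAC mouse at 6 weeks against 8.32 to 8.68.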

How the results depend on the processing

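Serping1 was called higher in CAC mice at 6 and 8 weeks against both groups in every setting run except Dunn's tests (adjusted p from 0.0725 to 0.273) and, at 8 weeks, the fit of only the groups compared. Its log2 difference from Con mice ranged from 1.14 to 1.51 at 6 and from 0.85 to 1.10 at 8 weeks. Numbers of genes in brackets count all genes called in either direction. Against Con mice at 2 weeks the 5 members called lower became 2 with median-ratio scaling (2386 genes) or the liver covariate (1689 genes). They became 0 with array weights (153 genes). They also became 0, with 0 of all genes called, with Dunn's tests, only the groups compared, the mesothelial covariate, and without mice of high Alb or libraries of fewest genes. With the adipocyte covariate 1 (Cfd) was called higher (3962 genes). At 4 weeks array weights (1069 genes) and the mesothelial covariate (21 genes) called 1 member higher. At 6 weeks the 1 member called higher became 0 with Dunn's tests (0 genes) and 3 with only the groups compared (4030 genes, against 922 as reported). It became 4 with array weights (6565 genes), and 2 without the libraries of fewest genes (4233 genes) or with C1ra and C1rb summed (923 genes). At 8 weeks, with 2005 genes called as reported, it became 0 with Dunn's tests (941 genes) or only the groups compared (552 genes). It became 2 with median-ratio scaling (3271 genes) or without the libraries of fewest genes (4697 genes). It became 3 with the mesothelial covariate (2295 genes) and 4 with array weights (4921 genes), which also called 1 (Cd55) lower. Against NCAC mice at 4 weeks 1 was called with only the groups compared (56 genes), array weights (1115 genes), the mesothelial covariate (19 genes) or without the libraries of fewest genes (303 genes). At 6 weeks it was 0 with Dunn's tests (0 genes) and 2 with array weights (5519 genes). At 8 weeks it was 0 with Dunn's tests (577 genes) or only the groups compared (364 genes). It was then 2 with array weights (5552 genes) and 5 with the mesothelial covariate (1951 genes). For NCAC against Con mice at 2 weeks the 1 called lower became 7 with array weights (1767 genes) and 2 without the libraries of fewest genes (679 genes). It became 0 with the mesothelial covariate (408 genes) or the replicate block (505 genes). It also became 0, with 0 of all genes called, with the liver covariate, Dunn's tests, only the groups compared or without mice of high Alb. Array weights called 4 members for a larger CAC minus Con difference at 6 than at 4 weeks, among 2195 genes in all. These weights ran from 1.49e-09 for CAC replicate 5 to 11.0 for NCAC replicate 3, both at 2 weeks. CAC replicate 3 at 8 weeks had 5.83e-05, so this setting nearly left out some mice. The cause of these changes between settings was not tested.

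These log2 differences changed sign, none of them called. Against Con mice at 2 weeks, Serping1 became 0.21 and Cd55 0.029 with median-ratio scaling, Serping1 0.24 without mice of high Alb and 0.17 with the mesothelial covariate, and Cfd -0.46 without the libraries of fewest genes. At 6 weeks Cd55 became -0.15 with median-ratio scaling, -0.14 without mitochondrially encoded genes, -0.00822 with the liver, -0.046 with the adipocyte and -0.078 with the mesothelial covariate, and C2 -0.16 with the last. At 8 weeks C2 became 0.060 without mice of high Alb and 0.032 with the mesothelial covariate, and C1s1 -0.046 with array weights. Against NCAC mice C2 became -0.056 at 6 weeks with median-ratio scaling, -0.062 without mitochondrially encoded genes and 0.038 at 8 weeks with the mesothelial covariate, Cfd 0.12 at 6 weeks with the adipocyte covariate, and C3 -0.060 at 8 weeks with the replicate block.

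Leaving out 1 mouse at a time gave 0 to 7 members called lower in CAC than Con mice at 2 weeks, with 0 without Con replicate 2, 1 without CAC replicate 3 and 2 without Con replicate 4 or 5 or CAC replicate 4, where 5 were called with all mice. It gave 0 to 3 for NCAC against Con mice at 2 weeks, where leaving out any mouse but NCAC replicate 4 moved the count, and 1 to 2 higher against Con mice at 8 weeks, with 2 without CAC replicate 3, the library with few genes. Serping1 stayed called at 6 and 8 weeks against both groups whichever mouse was left out, with log2 differences from Con mice of 1.26 to 1.43 and 0.78 to 1.10. Among differences that were not called, the sign changed for Cfd against Con mice at 2 weeks (-0.36 to 0.81) and NCAC mice at 6 weeks (-0.67 to 0.37), for Cd55 at 6 weeks (-0.069 to 0.14), and at 8 weeks for C2 (-0.46 to 0.0044), C1ra (-0.071 to 0.44) and C1s1 (-0.14 to 0.51), the last 2 without Con replicate 1.

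Equal replicate numbers did not pair the mice: of 60 pairs 18 had deviations correlated above 0.1 (range -0.633 to 0.387). The replicate block changed no other count of members called beyond that of NCAC against Con mice at 2 weeks. Dunn's tests were not run for the change of a difference between weeks. The number of mice limits the precision, and depth is unknown.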
